A study of Mus musculus with 9 samples.

Results

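The genes described here are 36 mouse genes of red cell differentiation and haem synthesis, read from arrays of splenic Gr-1+ cells. All probes whose platform annotation gives one of these 36 symbols were taken, 67 of the 45281 probes on the array, and 34 of the 36 genes had a probe above the background limit on at least 3 of the 9 arrays. The other two, Epb42 and Rhd, each had 1 probe, with signals no higher than 4.0 and 3.1 on any array. Gr-1+ (Ly6G+) cells, mainly neutrophils, were taken from the spleen on day 7 after bone marrow transplantation with magnetic beads, and RNA was extracted when their purity exceeded 97%. The labels therefore name a myeloid population, and red cell genes are not what its gate selects for.

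There were 3 groups of 3 arrays. The syngeneic group held cells of C57BL/6 (B6) hosts that received a syngeneic transplant and had no graft-versus-host disease. The WT group held cells of C57BL/6 (B6) hosts after an allogeneic transplant. The KO group held cells of B6.129-Ido1tm1Alm/J (IDO KO) hosts after an allogeneic transplant. These hosts carry a disrupted Ido1, the gene of an enzyme that starts tryptophan breakdown. The disruption is in every cell of their own and not in myeloid cells alone. The host strain does not tell the state of Ido1 in cells from the donor. The strain of the donors is not given in the sources used here, and whether the cells came from host or donor is not stated either. The study set KO against WT to find what IDO1 in myeloid cells regulates, with the syngeneic cells as control. The labels do not state whether each array stands for an animal of its own, and the p-values therefore rest on a spread between arrays that may be technical.

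Red cells arise from progenitors in which transcription factors such as Gata1, Klf1 and Tal1 switch on the genes of haemoglobin, haem synthesis and the red cell membrane. Iron enters these cells through the transferrin receptor and is built into haem in the mitochondrion, while a skeleton of spectrin, anchored through ankyrin to the anion exchanger, gives the membrane its strength. In the mouse the spleen is a site of red cell production, which expands after transplantation and in anaemia, and its red pulp macrophages take up old red cells and recycle their iron.

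Promoter sequences are shown because Gata1 and Klf1 are themselves among the genes measured, and each binds a known short motif. The 250 bases before the annotated start were searched on both strands for short motifs, and matches are in capitals. The motifs were AGATAA (a form of the GATA site, of which other forms were not searched), CACCC (the core of a Klf1 site) and TGANTCA (the core of an NF-E2 site). Shown are, for 5 of the 6 roles, the member with the highest mean signal among those with a RefSeq promoter (Tfrc, Urod, Hba-a1, Sptb and Aqp1), and Klf1 and Alas2, which were chosen after their values were seen. All are from RefSeq on GRCm38.p6, read 5′ to 3′ on the gene's strand.
Klf1, chr8:84901732-84901981, plus strand: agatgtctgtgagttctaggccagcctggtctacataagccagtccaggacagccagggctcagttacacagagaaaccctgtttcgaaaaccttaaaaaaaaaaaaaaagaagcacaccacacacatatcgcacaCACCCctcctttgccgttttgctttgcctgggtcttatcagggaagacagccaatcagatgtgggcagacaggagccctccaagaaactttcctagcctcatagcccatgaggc
Tfrc, chr16:32608646-32608895, plus strand: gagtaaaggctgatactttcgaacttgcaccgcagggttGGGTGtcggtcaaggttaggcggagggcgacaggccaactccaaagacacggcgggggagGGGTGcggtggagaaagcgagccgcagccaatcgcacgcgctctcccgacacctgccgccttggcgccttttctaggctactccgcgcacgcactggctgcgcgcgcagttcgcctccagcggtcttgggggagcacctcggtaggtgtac
Alas2, chrX:150547167-150547416, plus strand: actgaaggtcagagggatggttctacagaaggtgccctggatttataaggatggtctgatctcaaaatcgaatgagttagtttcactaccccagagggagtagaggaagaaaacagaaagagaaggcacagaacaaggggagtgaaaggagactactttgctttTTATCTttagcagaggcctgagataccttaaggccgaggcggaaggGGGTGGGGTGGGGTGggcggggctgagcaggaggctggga
Urod, chr4:116994414-116994663, minus strand: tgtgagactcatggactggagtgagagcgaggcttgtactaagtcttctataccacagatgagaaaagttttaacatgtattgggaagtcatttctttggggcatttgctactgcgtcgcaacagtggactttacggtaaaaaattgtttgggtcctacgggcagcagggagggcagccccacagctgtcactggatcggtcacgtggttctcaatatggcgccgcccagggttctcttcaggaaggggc
Hba-a1, chr11:32283422-32283671, plus strand: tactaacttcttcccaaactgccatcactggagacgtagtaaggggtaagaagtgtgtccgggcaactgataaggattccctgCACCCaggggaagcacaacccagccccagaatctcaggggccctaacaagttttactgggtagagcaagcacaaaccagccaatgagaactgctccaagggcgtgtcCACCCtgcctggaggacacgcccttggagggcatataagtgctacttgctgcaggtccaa
Sptb, chr12:76710548-76710797, minus strand: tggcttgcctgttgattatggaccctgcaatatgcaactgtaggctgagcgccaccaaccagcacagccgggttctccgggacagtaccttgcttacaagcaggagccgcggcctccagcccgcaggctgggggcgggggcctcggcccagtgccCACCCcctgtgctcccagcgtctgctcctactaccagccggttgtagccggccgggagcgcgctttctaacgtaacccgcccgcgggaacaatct
Aqp1, chr6:55336049-55336298, plus strand: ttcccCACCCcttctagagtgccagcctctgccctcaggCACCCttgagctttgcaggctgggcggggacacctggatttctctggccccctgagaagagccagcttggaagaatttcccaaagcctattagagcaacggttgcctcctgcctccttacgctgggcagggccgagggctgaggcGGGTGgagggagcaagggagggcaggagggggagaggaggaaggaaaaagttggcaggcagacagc
In these 7 windows the Alas2 promoter alone held an AGATAA match, on the other strand, beside 3 adjoining CACCC matches. The form TGATAA, which was not searched and is not marked, stands in the Hba-a1 window and on the other strand of the Klf1 window. Urod held none of the 3 motifs. Of the 36 genes, 27 had a promoter in the table, and 8 of them (29.6%) held AGATAA, against 10.3% of 27025 promoters of the same length. CACCC was found in 21 (77.8%) against 51.3%, and TGANTCA in 2 (7.41%) against 6.87%. No matches overlapped, and a match is a string of letters, not a shown binding site.

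The values are fluorescence signals that the authors had background-subtracted and quantile-normalized, and the background limit was a signal of 14.3. Between 19155 and 19185 probes exceeded it on each array. Differences are log2 values with a standard error from limma, fitted over 10871 genes after an offset of 50 that understates the change of dim genes, and "called" means an adjusted p under 0.05. The mean correlation of an array with the others of its group, across genes, was 0.998 for syngeneic arrays and 0.993 to 0.995 for KO arrays, while WT replicate 2 reached 0.919. The summed signal of 10 neutrophil genes was 71063.1 on WT replicate 2 and between 198966.9 and 217436.4 on the other 8 arrays. Retnlg, a neutrophil gene, read 295.2 on WT replicate 2 and 27002.6 to 31679.4 elsewhere. In this the array went against its label of purified Gr-1+ cells, so the counts of called genes are given with it and without it. One chip carried the KO arrays and the other chip the remaining 6, so that chip and genotype cannot be told apart. Ido1 itself read 20.0 to 33.8 on the WT arrays, 3.9 to 13.3 on the syngeneic arrays and at most 0.6 on the KO arrays.

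Most of the red cell genes were high on the syngeneic arrays and low on WT replicates 1 and 3 and on the 3 KO arrays, while on WT replicate 2 they lay above all syngeneic arrays for 20 genes and below all of them for 14. Nfe2, Bpgm, Cpox and Xk had other patterns, given below. The summed signal of the 34 genes was 109115.3, 109646.7 and 109175.4 on the syngeneic arrays. It was 30326.5 on WT replicate 1, 120484.8 on WT replicate 2 and 28433.9 on WT replicate 3. On the KO arrays it was 27364.1, 21058.7 and 19073.2. With their brightest probes, all 34 genes exceeded the background limit on each syngeneic array and on WT replicate 2, against 25 and 27 on WT replicates 1 and 3, and 24, 23 and 20 on the KO arrays. In RNA from a cell population, fewer red cell precursors and less RNA per precursor cannot be told apart. The brightest probes of Tfr2, Fn3k, Add2, Dmtn, Tmod1 and Ackr1 passed the filter only through the syngeneic arrays and WT replicate 2, and those of Gata1, Kel and Ermap, above the limit on 1 further WT array, would not have passed without the syngeneic arrays either. A difference was thus built into the selection of these 9 genes. Their adjusted p-values against syngeneic cells are given below as description and are no independent support. The counts below, which include them, are a description of the genes that passed.

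**Figure D1:**
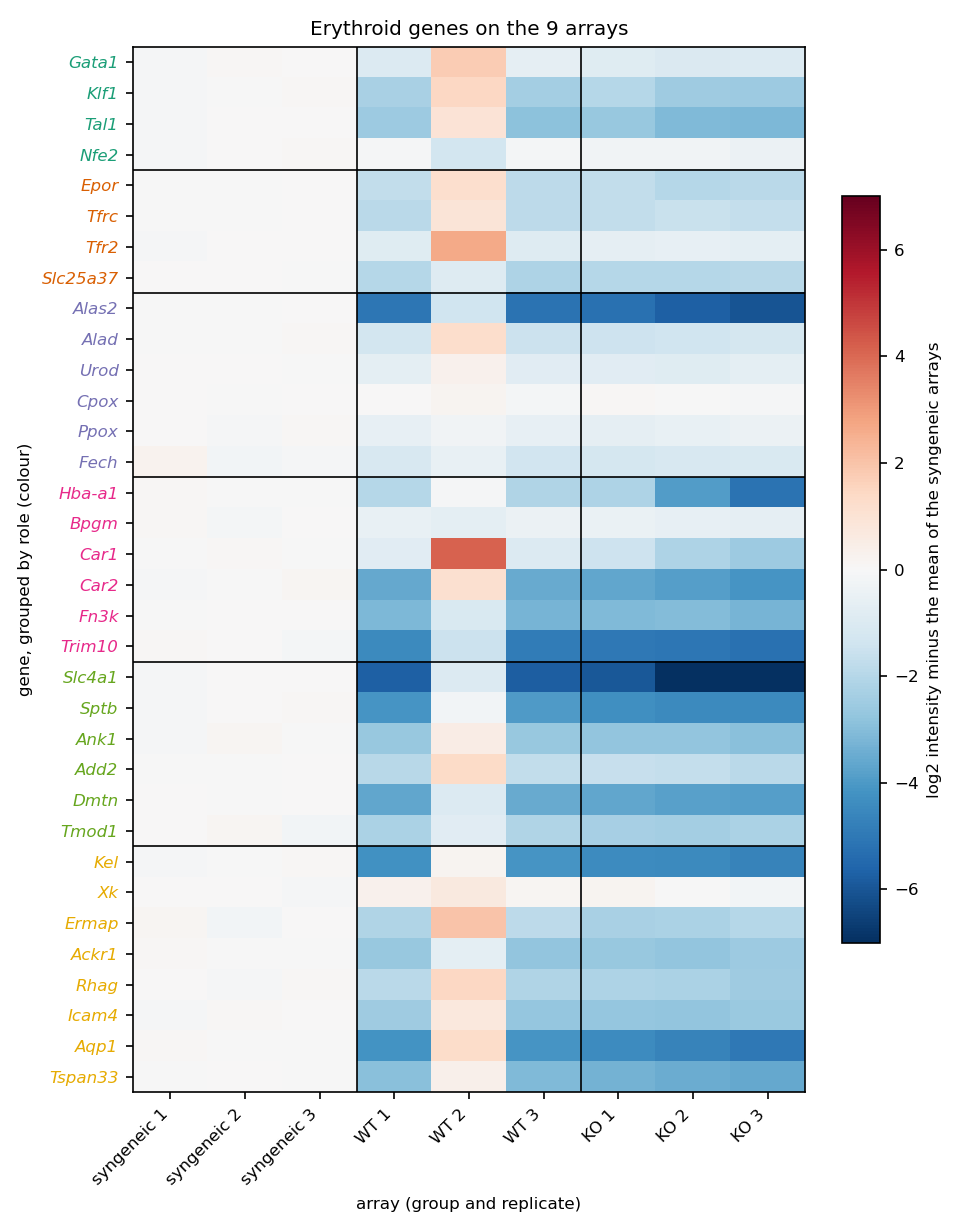
Heat map of the 34 tested red cell genes, grouped by role, on the 9 arrays; colour gives each array's log2 intensity minus the syngeneic mean of that gene. WT replicates 1 and 3 and the 3 KO arrays are blue for nearly all genes, and the column of WT replicate 2 (WT 2) holds both red and blue.

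With all 9 arrays, 10 of the 34 genes were called lower in WT than in syngeneic cells, where 5.64% of all genes were, and 0 were called higher, where 4.8% were. At an unadjusted p under 0.05 the number was 15, or 44.1%, against 27.1% of all genes. Without WT replicate 2, limma called 31 of 34 lower, against 14.9% of all genes, and the exceptions were Nfe2, Cpox and Xk. The median log2 difference of the 34 genes was -1.23 with that array and -2.06 without it, beside 0.04 for all genes in both fits. Both groups lay on 1 chip. In KO against syngeneic cells 17 were called lower, against 6.85% of all genes, and 32 without WT replicate 2, against 20%, the exceptions being Cpox and Xk. None was called higher, where 5.09% of all genes were with all arrays and 19.3% without WT replicate 2. The median difference there was -2.29, beside 0.02 for all genes. The syngeneic arrays serve both comparisons, so these counts are not independent of each other. WT replicate 2 is in neither group of KO against syngeneic cells. It acts there through the standard error, which limma estimated from all 9 arrays together, while the differences stay the same. The errors and p-values of that comparison with all arrays thus do not measure KO and syngeneic spread alone. With only the 2 groups compared, 32 of the 34 genes were called, and 3999 of all genes.

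**Figure D2:**
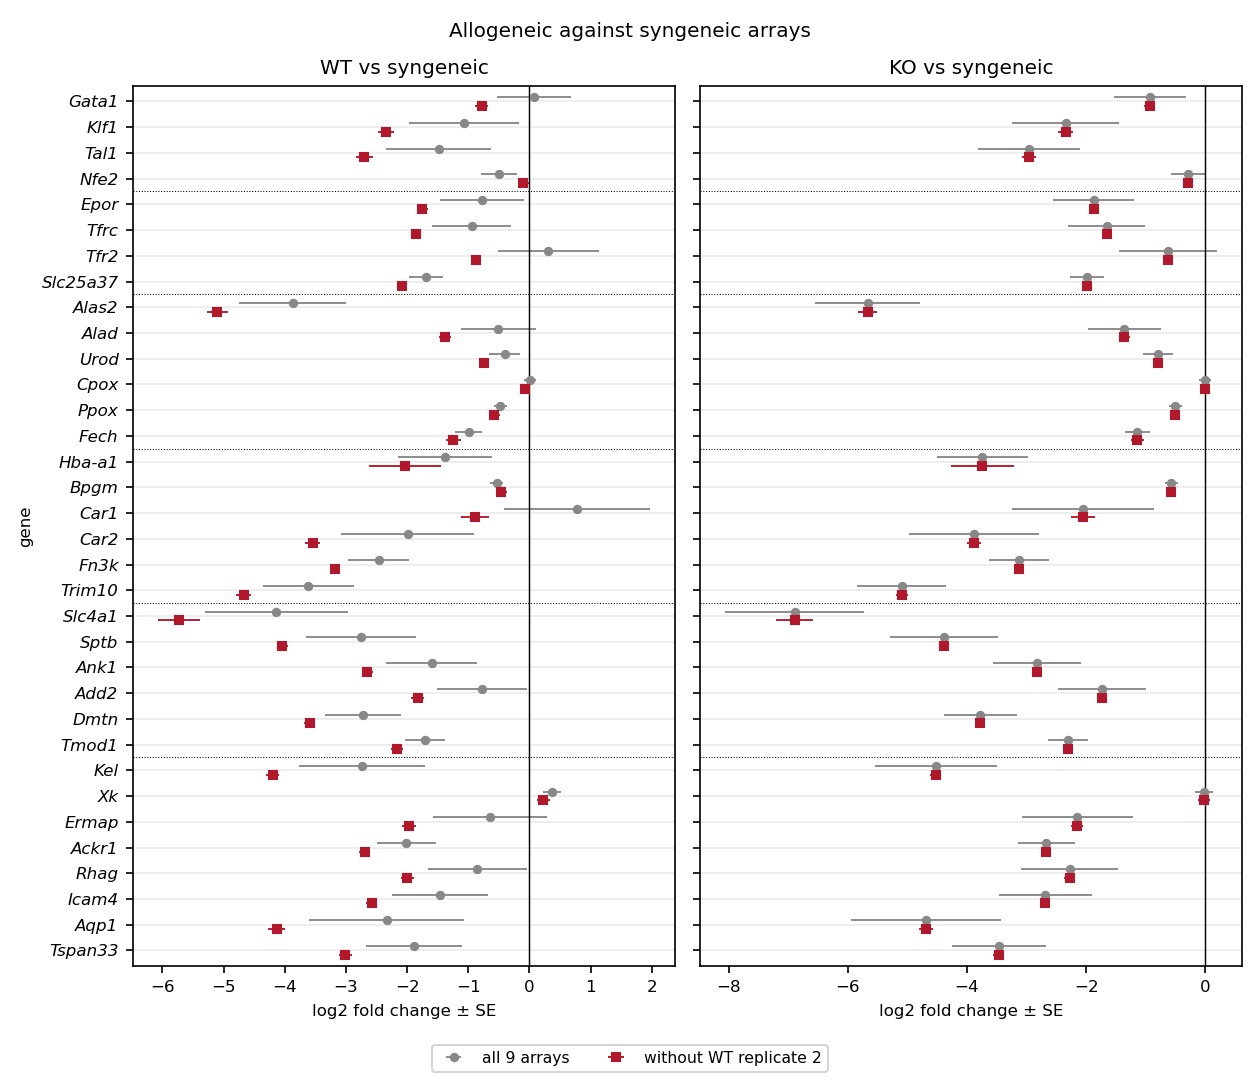
Log2 fold change with its standard error (bars) of each red cell gene in WT (left) and KO (right) against syngeneic cells, from all 9 arrays (grey circles) and without WT replicate 2 (red squares). Without that array the WT values move to the left for most genes and their errors shrink, while the KO values stay in place with smaller errors; Cpox and Xk lie near 0.

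Among the transcription factors, Klf1, the activator of adult globin genes, read 389.0, 420.9 and 460.2 on the syngeneic arrays, 33.6, 1285.3 and 25.7 on WT replicates 1, 2 and 3, and 54.2, 20.4 and 18.7 on the KO arrays. Tal1, a partner of Gata1 in erythroid complexes, read 699.9, 754.2 and 757.9, then 71.7, 1479.4 and 44.4, then 60.2, 28.5 and 24.8. Both genes were lowest in the 5 allogeneic arrays other than WT replicate 2, with no overlap with the syngeneic arrays, and highest of all in WT replicate 2. Gata1, which directs most erythroid genes, read 67.3, 81.7 and 76.0 in syngeneic cells, 7.3, 415.9 and 25.3 in WT and 12.8, 3.8 and 6.4 in KO cells, where no array exceeded the background limit. With all arrays the log2 differences from syngeneic cells were -1.08 ± 0.90 for Klf1 and -1.48 ± 0.86 for Tal1 in WT, at limma adjusted p of 0.472 and 0.301. Without WT replicate 2 they were -2.35 ± 0.14 and -2.70 ± 0.14, at adjusted p of 1.07e-07 and 3.26e-08. Gata1 was at least 1.75-fold lower in KO than in syngeneic cells, at an adjusted p of 0.383 with all arrays and 1.04e-05 without WT replicate 2.

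Nfe2, a factor that granulocytes and platelet precursors also use, did not share this pattern. It read 9790.4, 10437.8 and 10799.2 in syngeneic cells, 9824.7, 4151.5 and 9433.4 in WT, and 8717.5, 8814.9 and 7850.8 in KO cells. Its one low array was WT replicate 2, and the KO arrays lay below every syngeneic array. The difference in WT was -0.10 ± 0.09 without that array (limma adjusted p = 0.409), and in KO it was -0.29 ± 0.08 (adjusted p = 0.0111), or an adjusted p of 0.597 with all arrays.

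Of the receptors and iron carriers, Slc25a37 was called with all arrays. This mitochondrial iron importer, mitoferrin, read 2749.3, 2818.5 and 2648.0 in syngeneic cells, 628.2, 1419.1 and 562.7 in WT, and 648.3, 626.0 and 655.8 in KO cells. All 6 allogeneic arrays lay below the syngeneic ones, WT replicate 2 included. The difference was -1.70 ± 0.28 in WT (limma adjusted p = 0.00755) and -1.98 ± 0.28 in KO (adjusted p = 0.00301). The transferrin receptor Tfrc, which dividing cells of many kinds carry, read 3887.4, 3870.3 and 4087.4, then 1016.3, 7298.4 and 1068.1, then 1146.5, 1301.5 and 1181.9. WT replicate 2 was above every syngeneic array and the other allogeneic arrays were below them, and limma called the difference only without it, at -1.86 ± 0.08 in WT (adjusted p = 9.58e-09) and -1.65 ± 0.07 in KO (adjusted p = 8.92e-09). With all arrays the KO difference was -1.65 ± 0.64, so that its error changed and the difference itself did not.

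Epor, the receptor for erythropoietin, read 258.1, 263.6 and 272.4 in syngeneic cells, 35.5, 677.4 and 27.7 in WT, and 31.8, 15.6 and 24.4 in KO cells. The groups were arranged as for Tfrc, with differences of -1.75 ± 0.09 and -1.88 ± 0.08 without WT replicate 2. Tfr2, a second transferrin receptor that associates with Epor, read 47.2, 56.2 and 53.1, then -1.7, 684.1 and -2.0, then 11.2, 12.9 and 7.7. With this brightest probe it exceeded the background limit only in syngeneic cells and on WT replicate 2, but its further probe read 24, 25.5 and 37.4, then 27.5, 334.7 and 5.2, then 8.7, 15.6 and 10.5, above the limit on WT replicate 1 and KO replicate 2 as well. The brightest probe was called lower in KO cells only without WT replicate 2 (limma adjusted p = 2.66e-05, against 0.704 with all arrays). In WT its difference was 0.30 ± 0.83 with all arrays and -0.87 ± 0.08 without replicate 2.

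Of the 6 haem synthesis enzymes, Alas2, the erythroid form of the first enzyme of the pathway, had the largest differences. It read 4191.7, 4265.5 and 4374.5 in syngeneic cells, 63.6, 1572.3 and 56.0 in WT, and 49.1, 15.9 and -1.2 in KO cells. Every allogeneic array was below the syngeneic ones, and here WT replicate 2 also fell short of them. The difference was -3.87 ± 0.88 in WT (limma adjusted p = 0.0286) and -5.67 ± 0.88 in KO (adjusted p = 0.00464), a 50.8-fold lower mean on the offset scale. Without WT replicate 2 the WT value was -5.10 ± 0.18 (adjusted p = 1.13e-09), 34.4-fold lower. Alas1, the form of this enzyme that other cells use, read 9450.1 to 11309.8 in syngeneic, 4560.4 to 8174.8 in WT and 10081.5 to 12183.4 in KO cells, and the difference between KO and syngeneic cells was within its error (0.08 ± 0.22, adjusted p = 0.718).

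The later enzymes differed less. Fech, which inserts iron in the last step, read 186.6, 121.9 and 138.9 in syngeneic cells, 30.7, 85.4 and 17 in WT, and 24.3, 31.1 and 37.2 in KO cells, with no overlap between syngeneic and allogeneic arrays. Ppox, the oxidase before it, read 1279.0, 1183.9 and 1333.4, then 824.3, 1036.5 and 828.0, then 802.5, 877.1 and 945.0, again without overlap. Both fell in each comparison with all arrays, with differences of -0.996 ± 0.214 in WT and -1.14 ± 0.21 in KO for Fech, and of -0.47 ± 0.11 and -0.50 ± 0.11 for Ppox (limma adjusted p between 0.0114 and 0.0315). Alad, the second enzyme, read 3016.5, 2994.6 and 3212.2 in syngeneic cells, 1239.7, 7264.4 and 1043.7 in WT, and 1101.4, 1135.6 and 1250.0 in KO cells. Urod, a decarboxylase of the pathway that cells outside the red lineage also need, read 9135.0, 9307.3 and 8958.2, then 5567.2, 11102.9 and 5251.4, then 5209.3, 5021.9 and 5592.5. WT replicate 2 exceeded every syngeneic array for these 2 genes, and without it the WT differences were -1.38 ± 0.09 and -0.75 ± 0.08. Cpox, the enzyme before Ppox, stayed near the background limit on all arrays, between 10.6 and 30.7, and its KO difference from syngeneic cells was 0.00 ± 0.10.

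**Figure D3:**
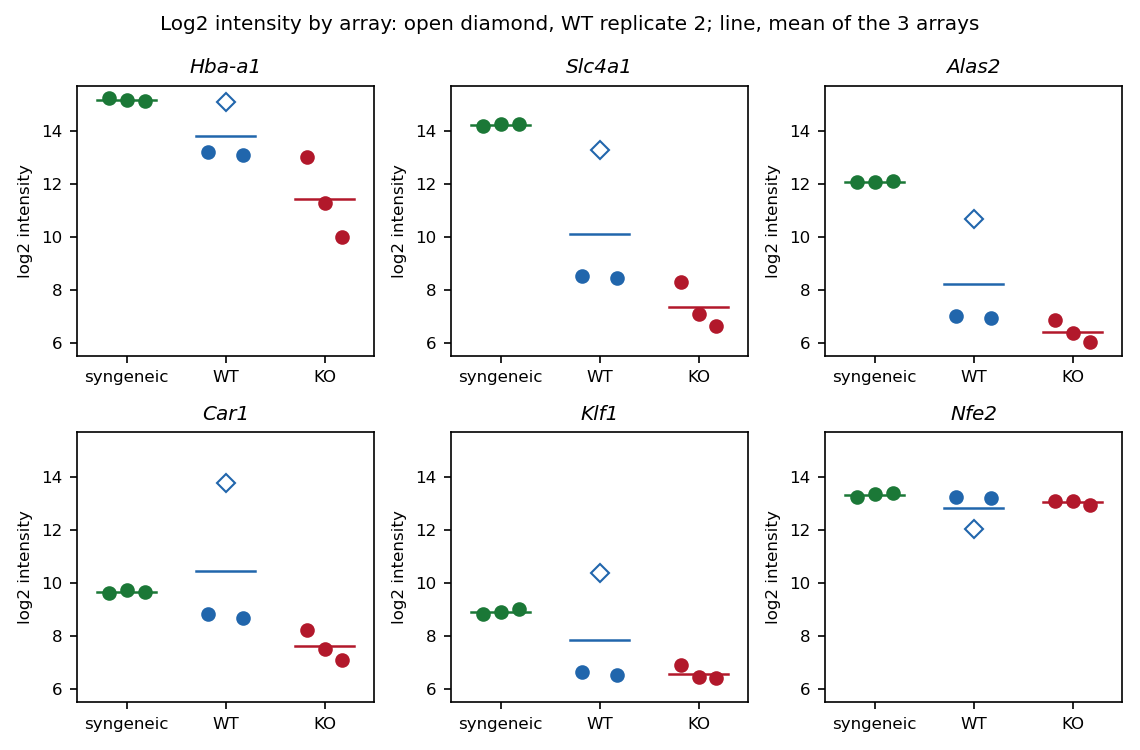
Log2 intensity (after the offset of 50) of Hba-a1, Slc4a1, Alas2, Car1, Klf1 and Nfe2 on each of the 9 arrays; points are arrays, the open diamond is WT replicate 2, and lines are means of the 3 arrays of a group. Alas2 and Slc4a1 are lower on all allogeneic arrays than on the syngeneic ones, on WT replicate 2 by the least. WT replicate 2 is the highest array for Car1 and Klf1, the KO arrays spread for Hba-a1, and Nfe2 is low on WT replicate 2 alone.

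Hba-a1, an adult alpha globin gene, read 38713.6, 36777.7 and 35983.2 in syngeneic cells, 9404.5, 35162.0 and 8604.9 in WT, and 8321.4, 2441.1 and 961.4 in KO cells. All allogeneic arrays lay below the syngeneic ones, WT replicate 2 by the least, and the KO arrays differed from each other more than for any other of the 34 genes. Its probe cannot be held apart from the near-identical Hba-a2, which has no probe of its own under that symbol here. The difference in KO was -3.74 ± 0.77 (limma adjusted p = 0.0164), and in WT it was -1.38 ± 0.77 with all arrays (adjusted p = 0.282) and -2.04 ± 0.59 without replicate 2 (adjusted p = 0.0218).

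The carbonic anhydrases Car1 and Car2, which handle carbon dioxide in red cells, were parted by WT replicate 2. Car1 read 727.2, 786.1 and 740.1 in syngeneic cells, 397.9, 14276.5 and 349.2 in WT, and 233.7, 118.6 and 71.9 in KO cells. Car2 read 1954.1, 2026.8 and 2340.7, then 115.9, 4606.3 and 122.5, then 104.8, 83.7 and 56.7. On WT replicate 2 the Car1 signal was 19.0 times the syngeneic mean and that of Car2 was 2.19 times it. Without that array the differences of Car1 were -0.90 ± 0.23 in WT and -2.05 ± 0.21 in KO, and those of Car2 were -3.54 ± 0.13 and -3.88 ± 0.11, at limma adjusted p of at most 0.0126. With all arrays the WT difference of Car1 was 0.78 ± 1.19 and none of these 4 differences was called.

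Trim10, a ring-finger protein of maturing red cells, read 2503.0, 2450.1 and 2189.6 in syngeneic cells, 43.1, 790.3 and 16.9 in WT, and 9.3, 6.0 and -0.2 in KO cells. Fn3k, a kinase that removes sugar adducts from proteins such as haemoglobin, read 533.6, 579.1 and 558.4, then 4.3, 236.5 and -0.1, then 5.8, 8.5 and -0.2. Neither exceeded the background limit on any KO array, and WT replicate 2 lay between the syngeneic and the other allogeneic arrays. Trim10 was at least 30.2-fold lower in KO than in syngeneic cells (limma adjusted p = 0.00349) and Fn3k at least 7.70-fold lower (adjusted p = 0.00555). Both were also called in WT with all arrays, at -3.62 ± 0.75 and -2.47 ± 0.50. Bpgm, which makes the phosphate compound that loosens oxygen from haemoglobin, read 98.0, 75.1 and 92.3 in syngeneic cells, 42.6, 28.8 and 49.6 in WT, and 44.2, 36.3 and 33.2 in KO cells. It fell by 0.54 ± 0.10 in WT (adjusted p = 0.0146) and 0.57 ± 0.10 in KO (adjusted p = 0.00956), and WT replicate 2 was its lowest array. The other probe of Bpgm stayed under the background limit on every array, the syngeneic ones included, at 10.1 or less.

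Of the membrane skeleton genes, Slc4a1, the anion exchanger to which ankyrin binds, read 18398.8, 19772.8 and 19394.7 in syngeneic cells, 305.1, 9962.2 and 284.4 in WT, and 250.6, 68.5 and 32.4 in KO cells. Its mean was 119-fold lower in KO than in syngeneic cells on the offset scale, a difference of -6.89 ± 1.17 (limma adjusted p = 0.00714). In WT it was -4.14 ± 1.17 with all arrays (adjusted p = 0.0615) and -5.74 ± 0.34 without replicate 2 (adjusted p = 1.18e-07), 53.3-fold lower. Sptb, the beta chain of spectrin, read 1514.4, 1638.9 and 1729.3, then 29.9, 1429.5 and 43.1, then 20.6, 10.6 and 11.9. Ank1, ankyrin itself, read 507.6, 603.4 and 548.2, then 33.1, 822.3 and 30.3, then 24.3, 23.5 and 15.0. WT replicate 2 was below every syngeneic array for Slc4a1 and Sptb and above them for Ank1. All 3 genes were called lower in KO cells with all arrays, Sptb at -4.39 ± 0.90 (adjusted p = 0.0167) and Ank1 at -2.82 ± 0.74 (adjusted p = 0.0452).

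Among the proteins that cap and bundle the skeleton's actin, Dmtn (dematin) read 868.7, 826.7 and 874.3 in syngeneic cells, 7.2, 408.1 and 12.5 in WT, and 7.0, -0.7 and -3.4 in KO cells. Tmod1, tropomodulin, read 235.6, 258.1 and 196.1, then -2.0, 102.7 and 0.8, then -7.1, -9.7 and -3.1. Add2, beta adducin, read 157.5, 161.1 and 166.3, then -6.9, 508.3 and 2.4, then 7.5, 4.5 and -5.0. These genes exceeded the background limit on no allogeneic array other than WT replicate 2, which stood above the syngeneic arrays for Add2 and below them for the other two. In KO cells Dmtn was at least 11.4-fold lower (limma adjusted p = 0.00607), Tmod1 at least 3.65-fold (adjusted p = 0.00317) and Add2 at least 2.82-fold (adjusted p = 0.187 with all arrays and 2.88e-08 without WT replicate 2). These genes passed the filter through their high syngeneic signals, so the adjusted p-values are descriptive.

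Of the blood group and surface genes, Kel, the Kell antigen, read 1309.4, 1381.5 and 1471.5 in syngeneic cells, 9.1, 1600.5 and 16.2 in WT, and 2.5, -1.1 and -10.8 in KO cells. Ackr1, the Duffy antigen, read 364.3, 329.6 and 340.1, then -0.2, 193.1 and -5.7, then -2.4, -6.4 and 3.1. Both were under the background limit on every KO array, where Kel was at least 17.95-fold lower than in syngeneic cells (limma adjusted p = 0.0256) and Ackr1 at least 5.08-fold (adjusted p = 0.00923). Aqp1, the water channel, read 2823.5, 2674.6 and 2646.4, then 88.6, 6597.7 and 94.8, then 67.1, 40.4 and 21.0. Tspan33, a tetraspanin of red cell precursors, read 1368.4, 1422.1 and 1382.8, then 127.8, 1772.5 and 101.6, then 81.3, 63.3 and 52.8. For these 2 genes WT replicate 2 was the highest array and the other allogeneic arrays lay far under the syngeneic ones, with KO differences of -4.69 ± 1.26 (adjusted p = 0.0484) and -3.47 ± 0.79 (adjusted p = 0.0252).

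Rhag, an ammonium channel of the Rh complex, ranged from 297.7 to 333.9 in syngeneic cells and from 3.0 to 19.9 in KO cells, and read 36.8, 983.0 and 22.4 in WT. Icam4, an adhesion molecule, ranged from 511.2 to 567.1 and from 23.7 to 33.2, with 43.3, 959.7 and 27.0 in WT. Ermap, a surface protein of the butyrophilin type, ranged from 202.4 to 263.0 and from -2.8 to 9.0, with 3.8, 1154.2 and 17.8 in WT. WT replicate 2 exceeded every syngeneic array for all 3, and none was called with all arrays (limma adjusted p between 0.0631 and 0.193 in KO against syngeneic cells), whereas all 3 were called lower in WT and in KO cells without it. Xk, the partner of Kel in the membrane, behaved otherwise. It read 225.8, 222.5 and 208.1 in syngeneic cells, 283.1, 387.4 and 251.2 in WT, and 256.1, 210.1 and 183.0 in KO cells. All WT arrays lay above all syngeneic arrays, as they did for 21.9% of all genes, but the difference of 0.37 ± 0.15 was not called (adjusted p = 0.151), nor was that of 0.22 ± 0.11 without WT replicate 2 (adjusted p = 0.139).

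Alas2, Gata1 and Xk are genes of the X chromosome. Xist, the RNA of the inactive X, read 713.1 to 910.2 with its brightest probe in syngeneic cells, 347.4 to 464.4 in WT and at most -4.7 in KO cells, so that the KO cells differ in this respect also. Like the chip, this difference cannot be told apart from genotype, for any gene. On 2 further probes of Xist, WT replicate 2 stood apart, at 331.6 beside 0.3 and 7.1 on WT replicates 1 and 3, and at 635.5 beside 67.0 and 62.1. The part of the Xist difference in the values of these 3 genes, and of the other red cell genes, was not tested.

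Red pulp macrophage genes were lower in the same allogeneic groups. Their 11 genes summed to between 117290.7 and 118544.0 on the syngeneic arrays, to 17982.1, 6828.5 and 17835.1 on WT replicates 1, 2 and 3, and to 31221.1, 39803.5 and 39757.4 on the KO arrays. With all arrays limma called 11 of 11 lower in WT and 9 of 11 in KO cells than in syngeneic cells, against 5.64% and 6.85% of all genes. Leaving out WT replicate 2 gave 11 of 11 lower in both, against 14.9% and 20%. Spic, the factor that forms these macrophages, read 9360.2 to 9580.1, then 613.1, 189.7 and 572.7, then 1941.1, 2354.4 and 3406.8. On WT replicate 2 the macrophage genes were lowest, where most red cell genes were high, and in KO against WT 4 of 11 were called higher, against 1.18% of all genes, or 9 without WT replicate 2, against 10.2%. The red cell genes were not called higher there with all arrays, and 1 of 34 was without WT replicate 2. The part of macrophages in the red cell values was not tested. Megakaryocyte and platelet genes, which share regulators with red cells, summed to between 175.9 and 364.7 over 5 genes on 8 arrays and to 861.6 on WT replicate 2. The 10 proliferation genes summed to between 30505.0 and 35809.9 and to 46184.4 on WT replicate 2, the 5 progenitor genes to between 27036.8 and 31640.8 and to 34427.5. The 2 B cell genes tested summed to between 953.6 and 1078.2 in syngeneic and between 561.8 and 715.4 in KO cells, and to 377.7, 1611.2 and 373.3 in WT.

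WT replicate 2 did not lie with its own group. Its log2 intensity exceeded that of both other WT arrays for 32 of the 34 genes (94.1%), where it did so for 44.7% of all genes, and the exceptions were Nfe2 and Bpgm. The median excess over the mean of WT replicates 1 and 3 was 3.04, beside 0.00 for all genes. Against the syngeneic arrays it was not simply raised. It lay above all 3 for 20 genes (58.8%, against 46.3% of all genes) and below all 3 for 14 (41.2%, against 38.8%), and within their range for 0.

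On this array Car1 was 4.13 above the syngeneic mean on the log2 scale, Tfr2 2.66, Ermap 2.01, Gata1 1.77, Klf1 1.47 and Rhag 1.45. Trim10 was below it at -1.51, Alas2 at -1.41, Nfe2 at -1.30, Fn3k at -1.04, Dmtn at -0.96 and Slc4a1 at -0.94. Of the surface proteins 7 of 8 lay above all syngeneic arrays, where 46.3% of all genes did. So did 3 of 4 transcription factors and 3 of 4 receptors and iron carriers. Of the skeleton genes 4 of 6 lay below all of them, where 38.8% of all genes did. So did 4 of 6 globin and cytosolic genes, while the haem enzymes were split 3 and 3. With 1 array and so few genes in each role there is no test of this order.

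**Figure D4:**
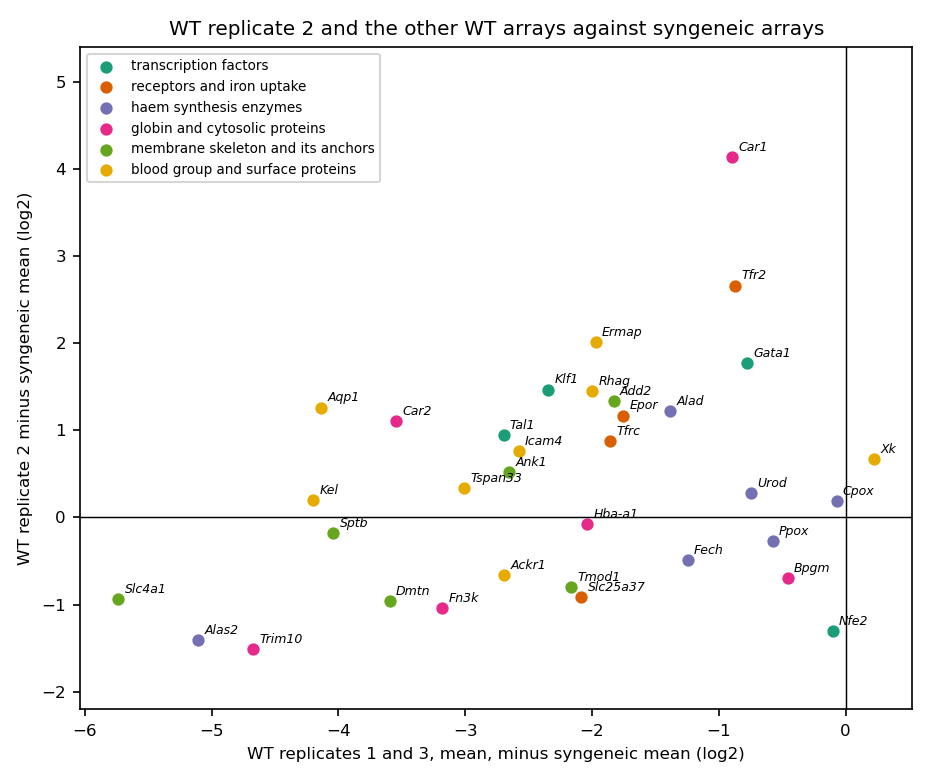
For each red cell gene, the log2 intensity minus the syngeneic mean on WT replicate 2 (vertical axis) against the mean of WT replicates 1 and 3 (horizontal axis). Nearly all genes are left of 0, and WT replicate 2 spreads them on both sides of 0, from Car1 at 4.13 to Trim10 at -1.51.

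Markers of other cells also moved on this array. The summed signal of 8 T cell genes was 37845.2 there and 6855.4 and 7028.6 on the other WT arrays, with Cd3e, a chain of the T cell receptor complex, at 9081.9 against 350.0 and 347.0. The summed signal of 8 mast cell, basophil and eosinophil genes was 67383.6 against 31763.6 and 31889.9. Prss34, a basophil protease, was at 27458.2 against 1764.3 and 1776.7. Hdc alone of this list went the other way, at 8595 against 22410.4 and 22556.4. Kit, a receptor of blood progenitors and mast cells, read 2968.4 against 262.6 and 263.9. Neutrophil genes were low there, as given above. The part of these cells in the values of WT replicate 2 was not tested.

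The comparison of KO with WT, the one the study was built on, called 0 of the 34 genes in either direction by limma with all 9 arrays, where 0.828% of all genes were called lower and 1.18% higher, 4 genes (11.8%, against 18.9% of all genes) had an unadjusted p under 0.05, and the adjusted p ranged from 0.155 to 0.949. With array weights, which gave WT replicate 2 a weight of 0.0415, limma called 7 lower (20.6%, against 14.2% of all genes) and 0 higher, against 13.1%. In the unweighted fit of all 9 arrays the median difference was -1.08, beside -0.02 for all genes. KO arrays lay below every WT array for 14 genes, against 12.6% of all genes. Without WT replicate 2 the median was -0.16, beside -0.01, and 8 genes were called lower, against 9.78% of all genes, and 1 higher, against 10.2%. The KO arrays then lay below both WT arrays for 15 genes, against 24% of all genes, and above both for 2, against 22.3%.

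The 8 genes called lower in KO without WT replicate 2 were Alas2, Car1, Trim10, Slc4a1, Sptb, Kel, Aqp1 and Tspan33. The differences of Car1 (-1.15 ± 0.23, limma adjusted p = 0.00505) and Slc4a1 (-1.16 ± 0.34, adjusted p = 0.0337) were more than 2-fold on the offset scale, 2.23-fold for both. Those of Alas2 (-0.56 ± 0.18), Aqp1 (-0.55 ± 0.14) and Tspan33 (-0.46 ± 0.10) were smaller, with adjusted p between 0.00992 and 0.0419. Trim10, Sptb and Kel differed by -0.42, -0.35 and -0.33, but in KO cells Trim10 and Kel had no array above the background limit and Sptb had 1. Tfr2, called higher at 0.25 ± 0.08 (adjusted p = 0.0413), was under the limit on all 5 arrays compared with its brightest probe, so no fold is given, and its further probe gave -0.07 and was not called. Hba-a1 had the largest difference without WT replicate 2, at -1.70 ± 0.59, and missed the threshold (adjusted p = 0.0623).

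**Figure D5:**
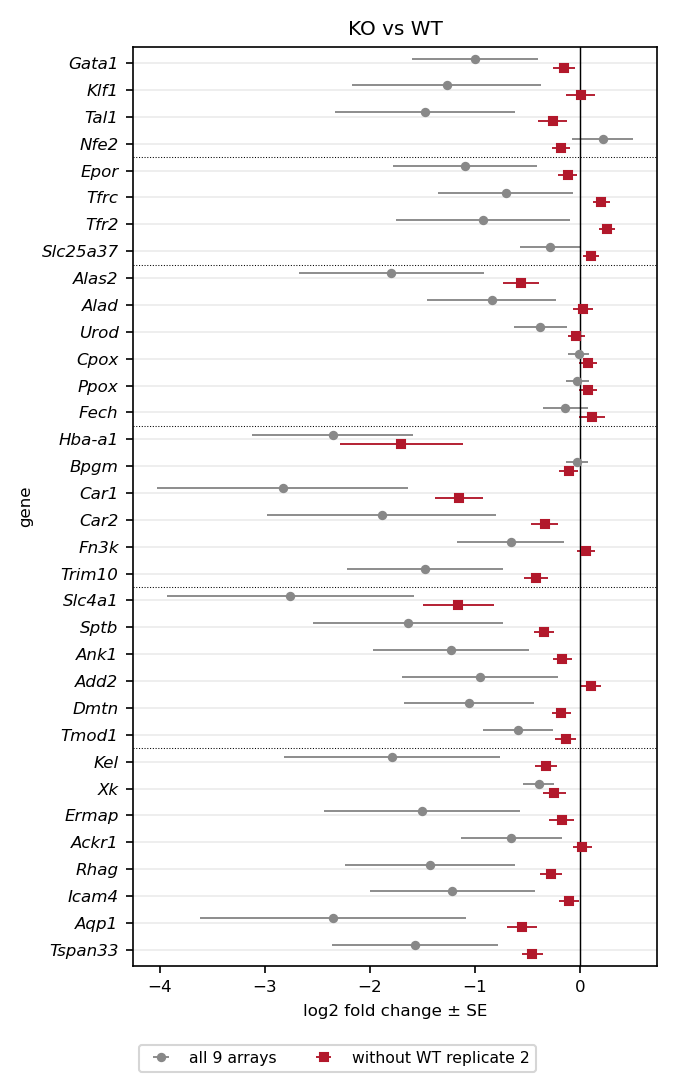
Log2 fold change with its standard error (bars) of each red cell gene in KO against WT cells, from all 9 arrays (grey circles) and without WT replicate 2 (red squares). With that array most genes lie left of 0 with wide errors, from -2.83 to 0.21; without it they lie close to 0, with Hba-a1, Slc4a1 and Car1 farthest to the left.

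Part of these differences lay within the KO group. Hba-a1, Slc4a1 and Car1 spanned 3.03, 1.68 and 1.12 on the log2 scale among the 3 KO arrays, and these 3 of 34 genes (8.82%) spanned more than 1, where 0.809% of all genes did. The KO array with the highest value was replicate 1 for 21 of 34 genes (61.8%, against 37% of all genes), and the lowest was replicate 3 for 21 (against 31.3%). The median span was 0.22 over the 3 KO arrays, 0.13 between WT replicates 1 and 3, and 0.11 over the 3 syngeneic arrays. A span of 2 arrays tends to be smaller than a span of 3, so the WT value is not directly comparable. On KO replicate 1, Hba-a1 at 8321.4, Slc4a1 at 250.6 and Car1 at 233.7 lay nearest to WT replicates 1 and 3 and still below both. Hbb-bt, an adult beta globin gene, was ordered in the same way among KO arrays, at 9534.6, 3344.0 and 1176.5, but on KO replicate 1 it exceeded its 8246.8 and 8108.4 on WT replicates 1 and 3. Leaving out KO replicate 1 as well as WT replicate 2, limma called 14 of the 34 genes lower (41.2%, against 16.2% of all genes) and 2 higher (5.88%, against 15.8%) in KO than in WT, in place of 8 and 1. This fit was added after the values were seen. KO replicate 1 was the highest KO array for most of these genes, so leaving it out lowers their KO means by construction. The larger count is thus a description only.

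Values of other cell types moved with these KO arrays. The 8 T cell genes summed to 10860.0, 13983.4 and 18380.2 on KO replicates 1, 2 and 3, the reverse of the order of Hba-a1. Cd3e was at 1072.2, 1652.5 and 2787.8. Not all genes of the list had this order. Cd8b1, the brightest of them on KO replicate 1, read 5403.3, 5418.8 and 4588.7, and Cd4 and Il7r were highest on KO replicate 2. In KO against WT cells limma called 0 of these 8 with all arrays, and 7 higher without WT replicate 2, where 10.2% of all genes were. The part of T cells in the KO values was not tested.

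Beyond the 36 genes, the same lineage was followed with 3 further lists. In the list of other haem and iron genes 11 of 13 were tested. With all arrays limma called 2 lower in WT than in syngeneic cells, Abcb10 and Flvcr1, and 3 in KO, these and Uros, against 5.64% and 6.85% of all genes. Leaving out WT replicate 2 gave 7 lower in each, against 14.9% and 20%, and 0 higher. Abcb10, a mitochondrial transporter of red cell precursors, read 194.6, 170.3 and 159.2 in syngeneic cells, 24.5, 81.2 and 30.1 in WT, and 2.4, 9.6 and 2.5 in KO cells. It fell by 1.14 ± 0.17 in WT (limma adjusted p = 0.00501) and was at least 2.98-fold lower in KO (adjusted p = 0.000521). Flvcr1, a haem exporter, fell by 0.62 ± 0.09 and 0.91 ± 0.09, and Uros, an enzyme of the pathway, fell by 1.04 ± 0.26 in KO. In KO against WT 0 of 11 were called with all arrays and 4 (36.4%, against 18.9% of all genes) had an unadjusted p under 0.05, Abcb10, Alas1, Flvcr1 and Abcb6. Abcb10 and Abcb6 were called lower and Alas1 higher without WT replicate 2, against 9.78% and 10.2% of all genes.

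Of 23 other red cell proteins, 13 were tested. In KO against syngeneic cells 5 were called lower with all arrays, Hbb-bt, Mgst3, Hagh, Ypel4 and Slc43a1, against 6.85% of all genes. There were 9 called lower without WT replicate 2, against 20%, and Slc2a1, a glucose transporter, was called higher at 0.38, against 19.3%. Hbb-bt read 31052.9, 31411.0 and 30539.2 in syngeneic cells and 8246.8, 31499.2 and 8108.4 in WT, and fell by 3.17 ± 0.75 in KO (limma adjusted p = 0.0301). Slc43a1, an amino acid transporter, read 1072.2, 1197.1 and 1134.2, then 90.3, 1491.4 and 86.7, then 110.0, 78.1 and 86.0, the same arrangement as most surface genes above. In WT against syngeneic cells Hagh, Ypel4 and Trak2 were called lower and Ctse higher, against 5.64% and 4.8% of all genes, and without WT replicate 2 there were 11 lower, against 14.9%, and Ctse again higher, against 14.6%. Ypel4 read 15.9, 80.6 and -1.7 in WT and at most -3.0 in KO cells. It would not have passed the filter without the syngeneic arrays, so its calls against them are descriptive. Ctse, cathepsin E, rose by 0.96 ± 0.25 in WT (adjusted p = 0.0494), with 8218.6, 16047.6 and 7919.7 against 4911.2 to 5379.1 in syngeneic and 4481.0 to 5858.4 in KO cells. In KO against WT 0 of 13 were called with all arrays and 6 (46.2%, against 18.9% of all genes) had an unadjusted p under 0.05, the smallest for Mgst3, Ctse, Gypc and Hagh. When WT replicate 2 was left out, Gypc, Mgst3 and Ctse were called lower, against 9.78%, and Trak2 and Kcnn4 higher, against 10.2%.

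Of 18 other erythroid regulators, 16 were tested. With all arrays limma called Sox6, Bnip3l, Xpo7 and Tmcc2 lower in WT and Hemgn, Sox6, Xpo7 and Tmcc2 in KO, each against syngeneic cells, where 5.64% and 6.85% of all genes were. With WT replicate 2 left out it called 7 lower and Cbfa2t3 higher in WT, against 14.9% and 14.6%, and 11 lower and E2f4 higher in KO, against 20% and 19.3%. Hemgn, a nuclear protein of red cell precursors, read 627.7, 629.8 and 667.8 in syngeneic cells, 20.1, 846.8 and 21.2 in WT, and 34.2, 19.1 and 20.3 in KO cells. Sox6, which helps to silence embryonic globin genes, read 96.3, 99.5 and 85.9, then -5.8, 28.2 and -3.1, then at most -3.2. WT replicate 2 was above the syngeneic arrays for Hemgn and below them for Sox6. Sox6 and Tmcc2 exceeded the background limit only on the syngeneic arrays and WT replicate 2. A difference was thus built into their selection, and their calls against syngeneic cells are descriptive. In KO against WT 0 of 16 were called with all arrays and 2 (12.5%, against 18.9% of all genes) had an unadjusted p under 0.05, Cbfa2t3 and Bcl11a. Without WT replicate 2, Bcl11a, Foxo3, E2f2, Mkrn1 and Cbfa2t3 were called lower, against 9.78%, and Gfi1b and Ldb1 higher, against 10.2%. The median difference of the 16 was -0.19 in WT and -0.56 in KO against syngeneic cells, beside 0.04 and 0.02 for all genes.

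Several genes had more than 1 probe above background, 14 further probes of 11 genes. Against syngeneic cells the further probes of KO cells had the sign of the brightest probe for all 14, and those of WT cells for all but 1 of Fech (0.05, not called). In KO against WT the sign was opposite for 1 with all arrays, of Slc25a37 (0.33, not called), and for 6 without WT replicate 2. The 2 further probes of Aqp1 fell as the first did in that comparison, by 0.63 and 0.40 without WT replicate 2, and both were called. The further probe of Trim10 gave 0.03 there, against -0.42 for the brightest one, and was not called.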

How the data were processed

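For 9 Illumina mouse arrays, the signal intensity of 45281 probes was deposited with its detection p-value; the submitters' processing notes name GenomeStudio, without its settings. Although presented as non-normalized, the deposited intensities hold values below 0 and the same quartile and maximum on every array, so the authors had already background-subtracted and quantile-normalized them. The authors' log2 values in the series matrix equal the logarithm of these intensities to within 1.1e-06 and lack the 35.6% of signals at or below 0, so their scale and direction are known and no centring was found; their median was 5.24 or 5.25 on each array. The deposited detection p-values did not track the signals closely (best rank correlation 0.746 to 0.763), so the limit was set from signals, at 14.3, the 95th percentile of 1617 probes of sensory receptors and keratin-associated proteins.

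Of all probes, 34885 have 1 gene symbol in the platform annotation, 18 have several and 10378 are unnamed here. Kept were 17197 probes that exceeded the limit on 3 or more arrays, and the brightest stood for each of 10871 genes. Signals were corrected by normexp with an offset of 50, quantile-normalized, and fitted in limma 3.58.1 (R 4.3.3) on all 9 arrays together, a mean for each group, Benjamini-Hochberg adjustment over all genes and a threshold of 0.05. Precision is limited by the number of arrays. For a gene above the limit on no array of a group, "at least N-fold" gives the fold against the limit. The test was tested on simulated data, in which all arrays of a gene had the same spread. An array that stands apart, as WT replicate 2 does, was not simulated.

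All 36 genes were named, and of the 3 lists of other erythroid genes those called and otherwise up to 4 with the smallest p. Lists of neutrophil, T cell, B cell, red pulp macrophage, megakaryocyte, mast cell and basophil, proliferation and progenitor genes are given by counts or summed signals. The genes, lists, limit and tests were chosen with earlier results of these data known. Promoters are from RefSeq (GRCm38.p6), with the first start where several are listed. Replicate numbers carry no stated pairing, and the deviations of same-numbered arrays from their group means correlated between -0.167 and 0.111, so arrays were not paired. Alternatives were another background correction, scaling, offset, filter and probe choice, array weights, the 2 groups compared alone, the replicate block and leaving out arrays. No coordinates of probes were used.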

Additional observations from a re-analysis of the deposited data

How the results depend on the processing

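The number of the 34 genes called depended on WT replicate 2 and on the fit. With all 9 arrays it was 10 in WT and 17 in KO against syngeneic cells and 0 in KO against WT, of 1135, 1298 and 218 of all genes, and leaving out 1 array at a time gave 1 to 31, 8 to 32 and 0 to 9, of 485 to 3214, 650 to 4269 and 33 to 2177. The high ends came without WT replicate 2. In WT against syngeneic cells, the count fell to 1, 2 and 1 without syngeneic replicates 1, 2 and 3, to 3 and 4 without WT replicates 1 and 3, and to 6 without KO replicate 2. In KO against syngeneic cells it fell to 8, 10 and 10 without syngeneic replicates 1, 2 and 3, and to 11 and 10 without KO replicates 1 and 2. Array weights called 32, 32 and 7 of the 34, of 4369, 4587 and 2967 of all genes. With only the 2 groups compared, 2, 32 and 0 were called, of 698, 3999 and 2. The replicate block called 6, 14 and 0, of 717, 903 and 31. Without background correction 6, 19 and 0 were called, of 971, 1214 and 133, and from the deposited log2 values 3, 13 and 2, of 798, 1018 and 129. The other planned settings stayed within 1.5 times of these counts. The remaining settings were added after seeing the data and all left out WT replicate 2. With the replicate block they called 31, 32 and 5, of 2792, 4133 and 1754, with only the 2 groups compared 32, 32 and 2, of 4454, 3999 and 1269, without background correction 29, 32 and 4, of 2822, 3882 and 1650, and without KO replicate 1 as well 32, 32 and 16, of 4197, 4823 and 3471. Leaving out WT replicate 2 changed the sign of 12 of the 34 differences in KO against WT, 4 in WT and 0 in KO against syngeneic cells. In WT against syngeneic cells Gata1, Tfr2 and Car1 were above 0 with all arrays and turned to -0.78, -0.87 and -0.90 without WT replicate 2, with only the 2 groups compared or KO replicate 1 also out giving those values too, to -0.78, -0.85 and -0.90 with the block, to -0.78, -0.83 and -0.83 with array weights, and to -1.97 for Gata1 and -1.86 for Tfr2 without background correction. Over all fits that leave out 1 array these values ranged from -0.78 to 0.57 for Gata1, -0.87 to 0.90 for Tfr2 and -0.90 to 1.66 for Car1. In KO against WT, where Tfr2 ranged from -1.52 to 0.25, it turned to 0.25 without WT replicate 2, as Tfrc did to 0.20, and with KO replicate 1 also out they were at 0.25 and 0.24. The other 10 were between -0.19 and 0.11 without WT replicate 2. The cause of these changes was not tested. Chip could not be fitted as a block, since the KO arrays lie alone on theirs. Genes near the signal of 14.3 are limited by background.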
